A study of Xenopus tropicalis with 52 samples.

Results

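The change in polyadenylated (polyA+) RNA over the first cleavages was examined in Series 1, a time course of *Xenopus tropicalis* embryos from a single female. The late window held the libraries at 2.0, 2.5 and 3.0 h post fertilisation (hpf) and the early window those at 0, 0.5 and 1.0 hpf, so 6 of the 52 libraries of the study entered the contrast. The library at 1.5 hpf was kept out of the test and used to follow the time course. All gene rows were examined, and rows for ribosomal RNA, mitochondrial RNA and reporters were omitted.

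The study collected pools of whole embryos at successive times from 3 fertilisations, each with a different mother. Series 1 and 2 were polyA+ libraries, whereas Series 3, from another frog colony, was sequenced both as polyA+ RNA and after depletion of ribosomal RNA (Ribo-Zero). No treatment, strain or genotype is recorded in the labels, and each library came from a pool of embryos of a single fertilisation. Each time point of Series 1 had 1 library, so neighbouring time points stood in for replicates and p-values measured the spread between time points of libraries that the labels place in 1 series. Whether all 7 came from the same embryos was not tested.

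The early *Xenopus* embryo divides rapidly on mRNA that the mother loaded into the egg, and its own genome is largely silent until the mid-blastula transition. Stored mRNAs are controlled through their poly(A) tails. Lengthening of the tail in the cytoplasm generally goes with translation, and shortening with silencing. Selection on poly(A) recovers long-tailed mRNA more readily, so in such libraries a longer tail and a larger number of molecules cannot be told apart, and likewise a shorter tail and fewer molecules. In pools of whole embryos, fewer cells of a type and less RNA per cell cannot be told apart either.

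Total counts in the 6 libraries lay between 19925593 and 23458219, of which ribosomal RNA took 0.975% to 6.67%. Values are given as normalised reads, that is counts scaled to 25000000 reads per library after the trimmed mean of M-values (TMM) correction. All 13 egg markers that were looked up, among them *zp2*, *mos* and *wee2*, had at least 10 counts in every Series 1 library. Of 18 markers of the zygotic embryo, 11 were at 0 in all 7 Series 1 libraries and 14 had fewer than 10 counts in each. Of 10 markers of blood, liver and muscle found in the table, 8 were at 0 throughout. The others were *ckm*, a muscle creatine kinase, with at most 7 counts in a library, and *slc4a1*, an anion exchanger of red blood cells, with up to 1128. The summed level of the egg markers lay between 125710 and 197533 normalised reads in the early window and between 73189 and 90936 in the late window. The highest of them in every Series 1 library was *wee2*, at 59394, 105372 and 44848 early and 30603, 24224 and 21264 late. In the contrast below *wee2*, *btg4*, *dazl*, *zp3*, *npm2* and *gdf1* fell and *zar1*, *zpax* and *zp4* rose. The others, *mos*, *zp2*, *cpeb1* and *vegt*, were not called. The part of maternal material other than the egg cytoplasm in these values was not tested.

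In a small number of gene rows the libraries at 2.5 and 3.0 hpf stood apart from the earlier ones of the same series. Between 2.0 and 2.5 hpf, 26 of 21750 gene rows changed at least 8-fold after 10 normalised reads had been added, against at most 2 rows in each other step of Series 1 and none between 2.5 and 3.0 hpf of Series 2. Of these 26 rows, 5 went up and 21 went down. In the Series 3 polyA+ libraries the same count reached 482, from 0 to 0.5 hpf. At a 4-fold cut the rises of Series 1 were not most frequent between 2.0 and 2.5 hpf, where 36 rows rose and 52 fell. From 1.0 to 1.5 hpf 64 rose and 0 fell, and from 0 to 0.5 hpf 41 rose and 16 fell. Over all genes tested in Series 1 the libraries at 2.0 and 2.5 hpf had a Pearson correlation of 0.978 on the log2 scale. For 1.0 and 1.5 hpf it was 0.974, and for 2.5 and 3.0 hpf 0.990. A set of 22 genes, picked after their values had been seen, had at most 10 normalised reads from 0 to 1.5 hpf and at least 50 in both last libraries. Their level at 2.0 hpf was between 5.35% and 47.8% of the mean of the last libraries, with a median of 15.2%. A second set of 12 genes had at least 50 normalised reads in every library to 2.0 hpf and at most 10 in both last ones.

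Transcripts of *nostrin* (Xetrov72005050), which encodes an adaptor that binds nitric oxide synthase, were measured at 1.36, 0 and 0 normalised reads in the early window, 0 at 1.5 hpf and 45.1, 445 and 460.2 in the late window. Levels of *gpc1* (Xetrov72004983), a cell surface proteoglycan, were 0, 1.79 and 3.87 early and 29.8, 326 and 305 late. Neither gene was above 10 normalised reads at 2.5 or 3.0 hpf of Series 2, which came from another female. In the opposite direction, *col14a1* (Xetrov72033124), a fibril-associated collagen, had 1073, 2298, 2041, 2191 and 1695 normalised reads from 0 to 2.0 hpf and 1.02 and 0.957 at 2.5 and 3.0 hpf, and it was also low in Series 2, at 2.44 and 0.784. The intermediate filament gene *vim* (Xetrov72034232) had 398, 289, 319, 189.8 and 136 from 0 to 2.0 hpf and 0 and 2.87 afterwards. It was measured at 90.4 and 95.6 at 2.5 and 3.0 hpf of Series 2. Of the 22 genes that appeared, 12 had at most 10 normalised reads at 2.5 hpf of Series 2. Another 6 had at least 50 at both 2.5 and 3.0 hpf of Series 2. Of the 12 that disappeared, 10 had at least 50 in both Series 2 libraries at these times. The cause of the step was not tested. Counts of calls are therefore also given without the last pair of libraries, with the late window at 1.5 and 2.0 hpf, an alternative chosen after the step had been seen.

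**Figure D1:**
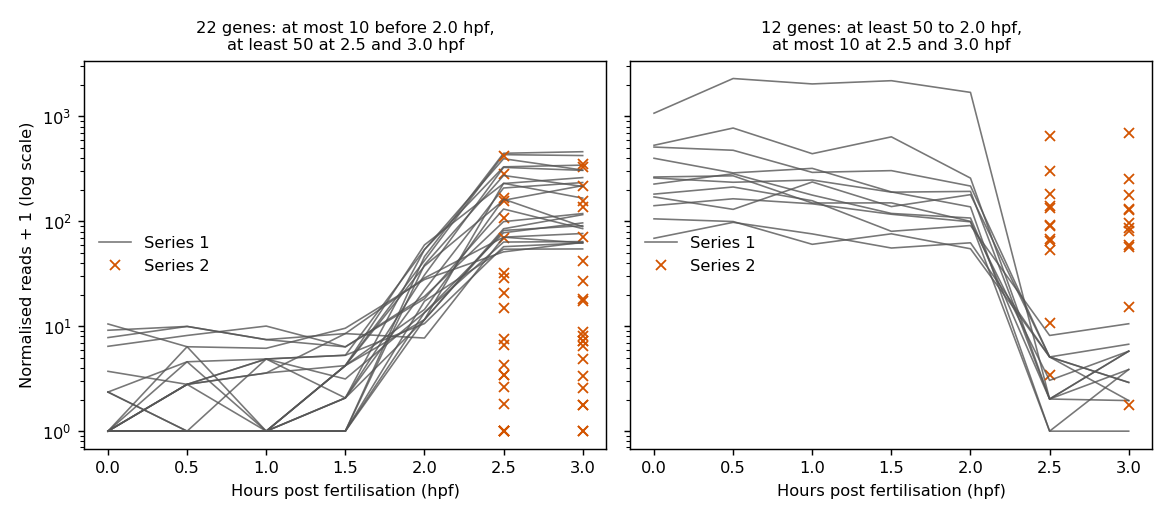
Normalised reads plus 1 on a log scale against hours post fertilisation. The left panel shows the 22 genes that appeared in Series 1, with at most 10 normalised reads in each library before 2.0 hpf. Their level at 2.0 hpf was between 5.35% and 47.8% of their mean at 2.5 and 3.0 hpf. The right panel shows the 12 genes that disappeared between 2.0 and 2.5 hpf in Series 1. Grey lines join the 7 Series 1 libraries of 1 gene. Orange crosses are the same genes in the Series 2 libraries at 2.5 and 3.0 hpf, scaled by library totals alone. There 10 of the 12 genes on the right and 6 of the 22 on the left had at least 50 normalised reads in both libraries.

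The main contrast asked how polyA+ RNA changed between the first hour and the third hour of development. Of 11743 genes tested, 6602 (56.2%) changed, 3482 (29.7%) rising and 3120 (26.6%) falling, with edgeR's quasi-likelihood test at an adjusted p under 0.05. A rise of at least 2-fold was found for 2777 genes (23.6%) and a fall of at least 2-fold for 1586 (13.5%). Among called genes rises were the larger changes, with a median log2 fold change of 1.52 against -1.01 for falls. At least 8-fold changes were found for 222 rising and 12 falling genes. The windows did not overlap for 3455 of the rising and 3084 of the falling genes, whereas 34.6% of all genes tested had higher and 32.6% lower values in every late library.

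The balance between rises and falls depended on scaling. Under TMM 52.7% of called genes rose. With library totals alone, the scaling the authors used, the median of all genes shifted by 0.48 on the log2 scale and 4721 genes rose while 1074 fell, so that 81.5% of the calls were rises. All of the 3482 rising genes were called rising under both scalings, but only 1074 of the 3120 falling genes kept their call. The genes with the most counts also took a smaller share of the later libraries. The first 100 of them took 21.2%, 24.7% and 21% of gene counts in the early window and 19%, 17.3% and 14.7% in the late window. Directions below are therefore relative to the middle of all genes. Counts of list members with library totals alone are to be read beside the 4721 rises and 1074 falls of 11743 genes.

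Fewer genes were called without the libraries at 2.5 and 3.0 hpf. The late window at 1.5 and 2.0 hpf gave 498 rising and 183 falling genes of 11401 tested with edgeR, and an unadjusted p under 0.05 for 4297. This alternative shares the early libraries and the 2.0 hpf library with the main contrast and lies closer in time. Of its calls, 497 and 183 were also called in the main contrast in the same direction, and none in the opposite one. Of the rising genes of the main contrast with a value in this window, 3235 of 3243 (99.8%) kept their sign, and of the falling genes 3099 of 3120 (99.3%). Of 129 genes named by rule that could be tested in this window, 79 lost their call. A lost call here does not show that a change was absent before 2.5 hpf. Counts of list members in this window are to be read beside the 498 rises and 183 falls of 11401 genes. Leaving out the library at 2.5 or at 3.0 hpf alone lowered the falling genes to 1965 and 1941, and the rising genes to 2648 and 2521.

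The median time course changed over several steps. In the library at 1.5 hpf, which the contrast did not use, the median rising gene had covered 50.2% of its change on the log2 scale (quartiles 33.1% and 69.8%) and the median falling gene 60.9% (quartiles 35.9% and 76.9%). The median rising gene lay 0.73 above its early mean at 1.5 hpf, 1.11 at 2.0, 1.42 at 2.5 and 1.62 at 3.0 hpf, in log2 units. The median falling gene lay at -0.57 at 1.5 hpf and at -0.79, -1.01 and -1.10 in the next 3 libraries. The step from 1.0 to 1.5 hpf was the largest for more genes than any other, 1045 of the rising (30%) and 1401 of the falling genes (44.9%). For rising genes the step from 0.5 to 1.0 hpf came close, with 977 (28.1%). Between 2.5 and 3.0 hpf 161 rising and 79 falling genes had their largest step. The contrast that chose these genes favours steps between the windows over steps within a window. The counts of largest steps are therefore a description only.

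**Figure D2:**
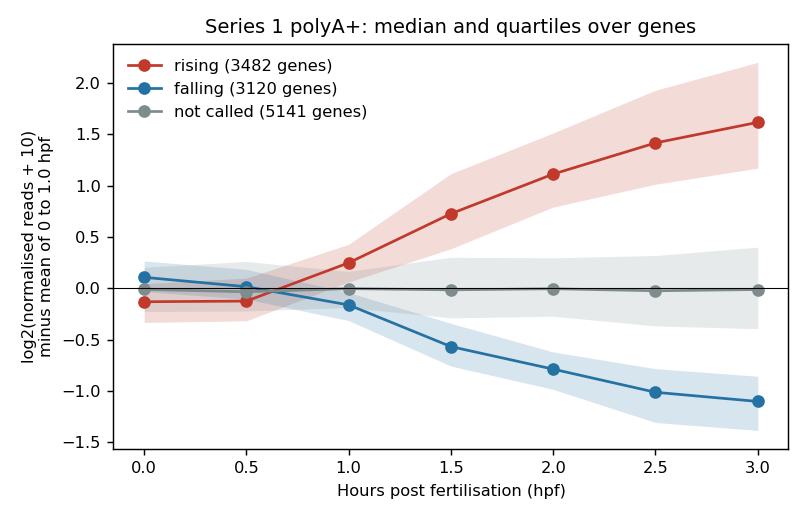
Median (points and lines) and quartiles (bands) over genes of log2(normalised reads + 10) minus the mean of the libraries at 0, 0.5 and 1.0 hpf, against hours post fertilisation, for the 3482 rising, 3120 falling and 5141 other tested genes of Series 1. Rising and falling genes already lie apart at 1.0 hpf (medians 0.25 and -0.16) and reach medians of 1.62 and -1.10 at 3.0 hpf. The windows on either side of 1.5 hpf chose these genes, so the separation is shown as a description.

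The Eg mRNAs are maternal transcripts known in *Xenopus* to lose their poly(A) tails after fertilisation. All 4 that were looked up fell, against 26.6% over all genes. The transcript of *aurka* (Xetrov72017409), the Aurora A kinase of the spindle poles, had 35259, 32379 and 15501 normalised reads at 0, 0.5 and 1.0 hpf and 5900.3, 4813 and 3844 at 2.0, 2.5 and 3.0 hpf. Its early and late libraries did not overlap, and its log2 fold change was -2.51 ± 0.34 (SE, edgeR adjusted p = 0.00166). Transcripts of *cdk2* (Xetrov72031041), a cyclin-dependent kinase, were at 7761, 5443 and 3355 early, 1573 at 1.5 hpf and 1025, 1060.4 and 744 late. Most of this loss had taken place by 1.5 hpf, and the log2 fold change was -2.55 ± 0.31 (edgeR adjusted p = 0.00159). The kinase transcript *melk* (Xetrov72023632) went from 6092, 5826 and 3585 to 1026, 627 and 422, the largest change of the group at -2.90 ± 0.35 (edgeR adjusted p = 0.00159). The mitotic kinesin transcript *kif11* (Xetrov72024951) went from 31559, 30810.1 and 21491 to 7127, 8102 and 6164, a log2 fold change of -1.97 ± 0.23 (edgeR adjusted p = 0.00159). Beside them, *mos* (Xetrov72034554), a kinase that holds the egg in meiotic arrest, had 18596, 39955 and 29276 early and 19869, 22053 and 12316 late, and these ranges overlapped. Its log2 fold change of -0.70 ± 0.33 did not pass the test (edgeR adjusted p = 0.0972). With the late window at 1.5 and 2.0 hpf, *cdk2*, *melk* and *kif11* were still called, whereas *aurka* was not (log2 fold change -1.43, edgeR adjusted p = 0.0872).

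**Figure D3:**
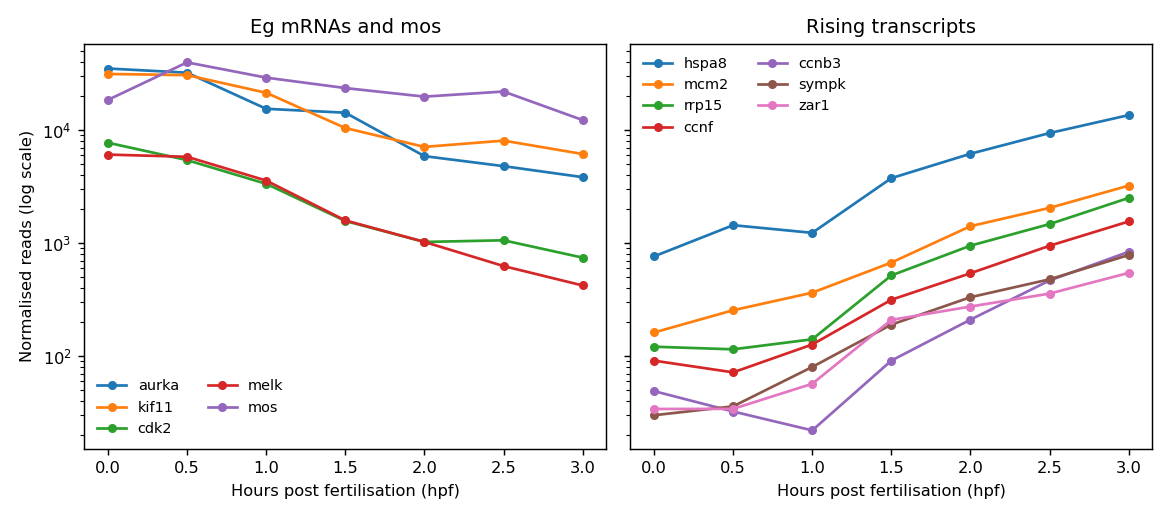
Normalised reads on a log scale against hours post fertilisation in the 7 Series 1 libraries for 4 Eg mRNAs and *mos* (left) and for 7 rising transcripts (right), 1 line per gene. The lines of *aurka*, *kif11*, *cdk2* and *melk* lie lower in every library from 2.0 hpf than in any library to 1.0 hpf, the line of *mos* does not, and all 7 lines on the right lie higher from 2.0 hpf.

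Other transcripts of the mitotic machinery fell alongside. Of 38 cyclins and cell cycle kinases, 23 fell (60.5%) and 9 rose (23.7%), against 26.6% and 29.7% over all genes. Their median log2 fold change was -0.97 against 0.01 over all genes. With library totals alone the same list gave 17 falls and 11 rises, and its median of -0.49 stayed below 0. With the late window at 1.5 and 2.0 hpf 2 fell and 3 rose, where 183 of all 11401 genes tested fell and 498 rose. These calls were too few to compare shares. The median of the list in that window was -0.48. The falling members included some B-type and A-type cyclins and several polo and Aurora kinases. Transcripts of *ccnb1*, cyclin B1, went from 62158, 46265 and 44129.8 to 27781, 14793 and 15693 normalised reads (log2 fold change -1.39 ± 0.30). Those of *cdk1* itself went from 10828, 7682 and 6963 to 2361, 2248 and 1806 (-1.99 ± 0.22), and those of *plk1* from 70914, 86989 and 49357 to 27928, 23496 and 19340.3 (-1.55 ± 0.28). In all 3 genes every late library was below every early one. Transcripts of *ccna2*, an A-type cyclin, overlapped between windows and were not called (log2 fold change -0.63, edgeR adjusted p = 0.0987).

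A few members of the same family went the other way. The transcript of *ccnb3* (Xetrov72013950), a B-type cyclin, had 48.9, 32.3 and 22 normalised reads early, 91.2 at 1.5 hpf and 210.3, 467 and 839 late, a log2 fold change of 3.87 ± 0.55 (edgeR adjusted p = 0.00175). Transcripts of *ccnf* (Xetrov72004733), cyclin F, which is a substrate receptor of a ubiquitin ligase rather than a kinase partner, were at 91.1, 71.7 and 127 and 542, 949 and 1557 (3.39 ± 0.42). Levels of *pkmyt1* (Xetrov72004973), an inhibitory kinase of Cdk1, were 89.7, 86.1 and 204 and 498, 704 and 991 (2.52 ± 0.41). In all 3 every late library was above every early one. The other inhibitory kinase of the egg, *wee2*, fell by contrast, from 59394, 105372 and 44848 to 30603, 24224 and 21264 normalised reads (log2 fold change -1.46 ± 0.34).

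Genes of mitotic exit and the spindle checkpoint changed in both directions, also within a complex. Of 40 tested, 21 fell (52.5%) and 8 rose (20%), against 26.6% and 29.7% over all genes. The median log2 fold change was -0.66, and with library totals alone 12 fell and 11 rose. With the late window at 1.5 and 2.0 hpf 5 fell and none rose. Transcripts of *mad2l1* (Xetrov72022451), the checkpoint protein Mad2, were at 5518, 4475 and 3839.7 normalised reads early and 1012, 675 and 511 late (log2 fold change -2.65 ± 0.28, edgeR adjusted p = 0.00159). Those of *ube2s* (Xetrov72027117), the ubiquitin-conjugating enzyme that extends chains for the anaphase-promoting complex, were at 47675, 19118 and 18666 and 9828, 7820.2 and 8389.6 (-1.71 ± 0.37). Cohesin subunits *smc3* and *rad21* fell as well, at -1.17 and -1.12. Subunits of the anaphase-promoting complex were found on both sides. Transcripts of *anapc7* (455, 328 and 969 early, 2115, 2327 and 2514 late, log2 fold change 1.99 ± 0.37), *anapc5* and *anapc4* rose, and *anapc10* and *cdc27* fell at -1.13 and -0.94. The kinetochore gene *zw10* (Xetrov72025263) rose from 126, 87.8 and 205 to 467, 664 and 880.2 (2.25 ± 0.37), whereas *kntc1*, whose product works in the same complex, fell at -1.69 ± 0.21.

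The list with the largest share of rising members was ribosome biogenesis, the nucleolar factors that process ribosomal RNA and assemble subunits. Of 118 tested genes, 77 rose (65.3%) and 16 fell (13.6%), against 29.7% and 26.6% over all genes. Of the rises, 68 were at least 2-fold. The median log2 fold change was 1.37. Transcripts of *rrp15* (Xetrov72001733), a factor of the large subunit, were at 121, 115 and 141 normalised reads early, 518 at 1.5 hpf and 951, 1476 and 2516 late. The early libraries were flat and each later one was higher, giving a log2 fold change of 3.71 ± 0.37 (edgeR adjusted p = 0.00159). Levels of *rcl1* (Xetrov72021570), a factor of the small subunit, were 28.5, 16.1 and 71 and 242, 560.4 and 1006 (3.93 ± 0.65), and its windows were far apart. Transcripts of the nucleolar gene *nol8* (Xetrov72008316) went from 148, 133 and 430.1 to 1541, 2249.9 and 3679.6 (3.38 ± 0.51). Those of *wdr46* (Xetrov72013363), another nucleolar factor, went from 93.8, 59.2 and 138 to 692, 931 and 1355 (3.34 ± 0.38). Among the DEAD-box helicases in the list, *ddx10*, *ddx54*, *ddx52*, *ddx47* and *ddx18* all rose, with log2 fold changes between 2.93 and 3.3. The list also had 23 rising and no falling members with the late window at 1.5 and 2.0 hpf, and 84 rising and 5 falling with library totals alone.

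Falls within this list included nucleolar and small ribonucleoprotein genes. Transcripts of *npm1*, a nucleolar chaperone, had a log2 fold change of -1.04 ± 0.27, those of *nop10* -1.32 ± 0.41 and those of *polr1a*, the largest subunit of RNA polymerase I, -1.19 ± 0.28. Other subunits of the same polymerase, *polr1b*, *polr1c* and *polr1e*, rose at 2.21, 2.26 and 1.44. The fibrillarin transcript *fbl*, which encodes a methyltransferase of ribosomal RNA, was not called (log2 fold change 0.13, edgeR adjusted p = 0.574).

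Transcripts for the proteins of the ribosome itself fell more often than they rose. Of 74 cytoplasmic ribosomal protein genes tested, 1 rose (1.35%) and 24 fell (32.4%), against 29.7% and 26.6% over all genes. The other 49 were not called, and the median log2 fold change was -0.54. With library totals alone 7 rose and 4 fell, and with the late window at 1.5 and 2.0 hpf none was called. The transcript with the largest change, *rpl37* (Xetrov72024041), had 2139.7, 380.1 and 189.9 normalised reads early and 268, 91.2 and 126 late (-2.48 ± 0.83, edgeR adjusted p = 0.0316), and its windows overlapped, since the library at 1.0 hpf lay below that at 2.0 hpf. The library at 0 hpf was far above the rest. In *rpl28* (Xetrov72027288) (1483, 534 and 430.1 against 343, 199 and 209) the library at 0 hpf was again the highest, and the windows did not overlap. Reads shared between genes were discarded, so the level of any ribosomal protein gene with a near-identical copy is uncertain. Of 72 mitochondrial ribosomal protein genes, 22 rose (30.6%) and 19 fell (26.4%), near the 29.7% and 26.6% over all genes. Among them *mrpl45* rose from 35.3, 28.7 and 54.2 to 211, 260.2 and 422 (2.90 ± 0.38).

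Genes that act on poly(A) tails and on mRNA decay changed in both directions. Of 107 tested, 30 rose (28.0%) and 36 fell (33.6%), close to the shares over all genes. The median log2 fold change was -0.14, and 0.36 with library totals alone, where 39 rose and 16 fell. With the late window at 1.5 and 2.0 hpf 7 rose and 2 fell. Rising members included parts of the cleavage and polyadenylation complex. Transcripts of *sympk* (Xetrov72012660), its scaffold symplekin, were at 29.9, 35.9 and 80.1 normalised reads early and 332, 478 and 785 late (log2 fold change 3.43 ± 0.47, edgeR adjusted p = 0.00167), and those of *fip1l1* (Xetrov72020051) at 385, 479 and 639 and 2417, 3996 and 5192 (2.95 ± 0.32). The subunits *cpsf1* and *cpsf2* rose at 1.67 and 1.97, whereas *cpsf4*, *cstf1* and *cstf3* fell at -1.01, -1.32 and -1.22.

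Among factors of translational repression and deadenylation the picture was also divided. Transcripts of *zar1* (Xetrov72021651), an RNA-binding protein of oocytes, rose from 34, 34.1 and 56.8 to 275, 358 and 545 normalised reads (3.22 ± 0.37, edgeR adjusted p = 0.00159). Those of *pabpn1l* (Xetrov72010914), an embryonic poly(A)-binding protein, rose from 80.2, 91.4 and 134 to 430.2, 621 and 1052 (2.78 ± 0.38), and those of *eif4enif1* (Xetrov72019295), the repressor known as 4E-T, from 780.3, 448 and 1103 to 3584, 4486 and 6468 (2.64 ± 0.35). By contrast, *btg4* (Xetrov72026940), which in mammals recruits the CCR4-NOT deadenylase, fell from 24822, 15946 and 14398 to 5302, 3426 and 2869 (-2.25 ± 0.31, edgeR adjusted p = 0.00167). Subunits of that deadenylase and of PAN2-PAN3 moved apart, with *cnot3* at 2.40 and *cnot10* at 1.16 rising and *cnot8*, *pan2* and *pan3* falling at -1.0, -1.10 and -0.98. Transcripts of the cytoplasmic polyadenylation factor *cpeb1* had 12499.9, 7332 and 9704 normalised reads early and 9731, 9086 and 10574 late, ranges that overlapped widely (log2 fold change -0.01). The cytoplasmic poly(A) polymerase transcript *papd4* fell from 8534, 11613 and 9537 to 6567, 5776 and 4512 (-0.82 ± 0.21).

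DNA replication and repair genes changed in both directions. Of 60 replication genes, 21 rose (35%) and 17 fell (28.3%), near the 29.7% and 26.6% over all genes. Their counts were 26 and 10 with library totals alone, and 4 and 2 with the late window at 1.5 and 2.0 hpf. Transcripts of *mcm2* (Xetrov72008598), a subunit of the replicative helicase, were at 162, 255 and 364 normalised reads early and 1414, 2054 and 3235 late, higher in each successive library (log2 fold change 3.1 ± 0.39, edgeR adjusted p = 0.00159). Those of *rpa1* (Xetrov72029656), which binds single-stranded DNA, went from 102, 96.8 and 169 to 458, 928 and 1309.8 (2.87 ± 0.42), and those of *rrm1* (Xetrov72042476), the large subunit of ribonucleotide reductase, from 377, 518 and 514 to 1807, 2476 and 3665 (2.50 ± 0.29). The small subunit *rrm2.1* (Xetrov72001314) fell by contrast, from 18106, 12623 and 11205 to 6616, 1053 and 1515 (-2.19 ± 0.63, edgeR adjusted p = 0.0165), mostly between 2.0 and 2.5 hpf, and it was not called with the late window at 1.5 and 2.0 hpf (-0.93, edgeR adjusted p = 0.0669). The catalytic subunit *pola1* of DNA polymerase alpha and the origin factor *orc1* fell as well (-2.05 and -1.36). Of 85 genes of the DNA damage response, 33 rose (38.8%) and 23 fell (27.1%). Their counts were 39 and 10 with library totals alone, and 3 and 4 with the late window at 1.5 and 2.0 hpf. The recombination gene *brca2* (Xetrov72028668) rose from 63.9, 55.6 and 107 to 369, 578 and 964 (3.06 ± 0.42) and *rad54b* (Xetrov72033441) from 43.5, 39.4 and 62 to 215, 354 and 489 (2.86 ± 0.37), whereas the helicase transcripts *blm* and *wrn* fell at -1.60 and -1.3.

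Among the remaining lists, protein folding and turnover had more rises than falls. Of 76 heat shock protein and chaperonin genes, 29 rose (38.2%) and 11 fell (14.5%), against 29.7% and 26.6% over all genes. The chaperone transcript *hspa8* (Xetrov72025443) rose from 764, 1443 and 1235 to 6197, 9453 and 13629 normalised reads (3.09 ± 0.35, edgeR adjusted p = 0.00159), while *hsp90ab1* (Xetrov72042203) fell from 109020, 198654 and 84538 to 68234, 46009 and 41888 (-1.33 ± 0.37). Of 41 proteasome genes 18 rose (43.9%) and 6 fell (14.6%). Among them *psmc1* (Xetrov72013839), an ATPase of the regulatory particle, went from 44.9, 37.6 and 45.2 to 218, 343 and 528 (3.08 ± 0.37). Numbered zinc finger (*znf*) genes had 61 rises (48.4%) and 21 falls (16.7%) among 126, for example *znf513* (Xetrov72018305) (10.9, 21.5 and 22 to 169, 296 and 273). These genes form a family with similar sequences, so the levels of single members are uncertain. Kinesins and tubulins had 23 rises (44.2%) and 16 falls (30.8%) among 52, and nuclear pore and transport genes 21 (41.2%) and 15 (29.4%) among 51. Of 97 translation factors and tRNA synthetases 32 rose (33.0%) and 23 fell (23.7%), near the shares over all genes. The arginyl-tRNA synthetase *rars* (Xetrov72038472) went from 17.7, 8.96 and 40 to 190.1, 321 and 496 (3.87 ± 0.55). Genes of oxidative phosphorylation had 19 rises (25%) and 10 falls (13.2%) among 76, both below the shares over all genes. Under library totals alone, where 4721 of 11743 genes rose and 1074 fell, rises outnumbered falls further in all of these lists. Examples are 37 and 5 for heat shock proteins, 25 and 2 for the proteasome, 72 and 9 for *znf* genes and 35 and 4 for oxidative phosphorylation. With the late window at 1.5 and 2.0 hpf the same lists gave 5 and 2, 2 and 1, 8 and 1, and 5 and 0, and kinesins and tubulins 3 rises and 4 falls.

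Splicing factors, histones and Rab GTPases had more falls than rises under TMM. With library totals alone splicing factors and Rab GTPases had more rises than falls, as all genes did (4721 rises and 1074 falls of 11743). Of 75 spliceosome genes 31 fell (41.3%) and 9 rose (12%), against 26.6% and 29.7% over all genes. Their median log2 fold change was -0.50, but 10 fell and 15 rose with library totals alone. The core splicing protein transcript *snrpd3* (Xetrov72022913) fell from 31794, 23322 and 16237 to 10094, 8409 and 7465 (-1.46 ± 0.27), while *prpf3* (Xetrov72003606) rose from 450, 432 and 1032 to 2423, 3147 and 4216 (2.35 ± 0.37). Of 37 histone and histone chaperone genes 14 fell (37.8%) and 5 rose (13.5%), or 8 and 7 with library totals alone. Histone mRNAs of the replication-dependent kind mostly lack poly(A) tails in somatic cells, and near-identical copies make single histone genes uncertain. The histone chaperone *nap1l1* (Xetrov72039171) rose, from 908, 1011 and 2697 to 7529, 8559.9 and 10416 (2.52 ± 0.41). Of 38 Rab GTPase genes, which direct vesicle traffic, 14 fell (36.8%) and 7 rose (18.4%), or 4 and 11 with library totals alone. With the late window at 1.5 and 2.0 hpf no splicing factor or histone gene was called, and 1 Rab gene fell and 2 rose. Ubiquitin genes (49 rises and 37 falls among 142), chromatin modifiers (32 and 35 among 115), signalling genes (25 and 25 among 94) and solute carriers (40 and 45 among 172) lay near the shares over all genes. With library totals alone rises outnumbered falls in each of them, as over all genes, at 65 and 15, 47 and 18, 35 and 9, and 55 and 13.

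**Figure D4:**
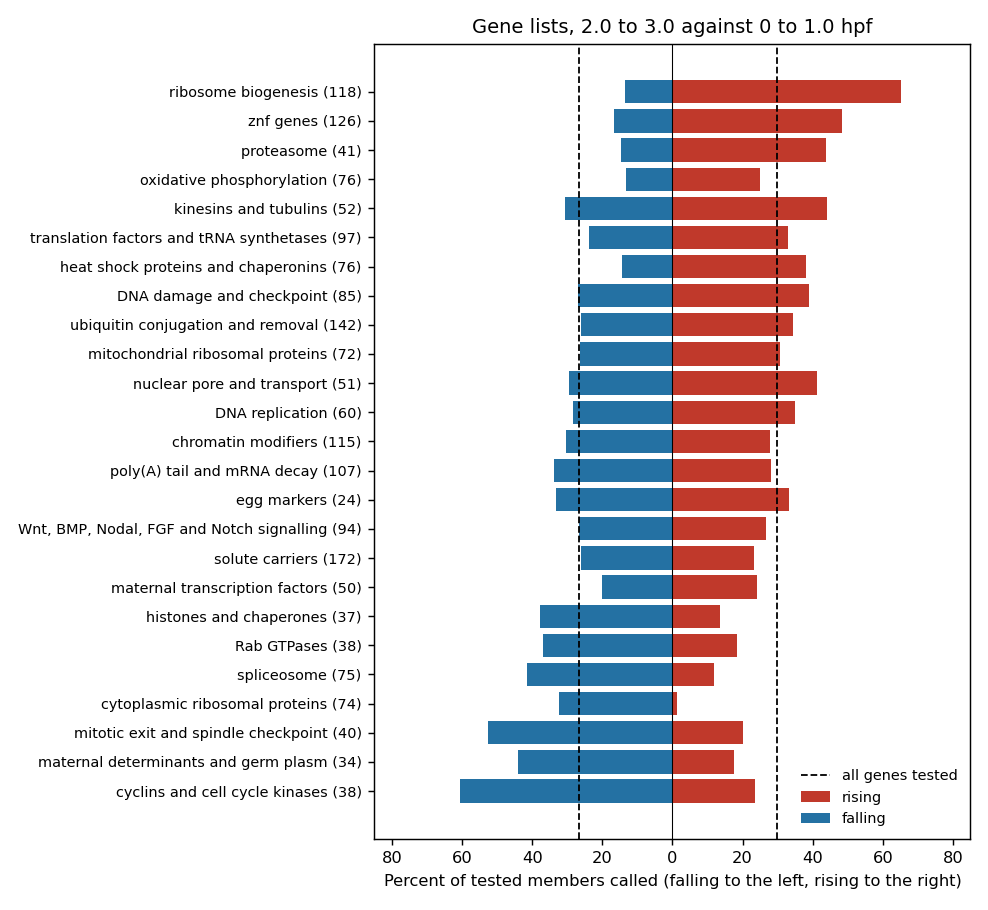
Percentage of the tested members of each gene list that rose (red, to the right) or fell (blue, to the left) in Series 1, for the 25 lists with at least 20 tested members, ordered by median log2 fold change; the number tested is in brackets. Dashed lines mark the 29.7% rising and 26.6% falling over all 11743 genes tested, and ribosome biogenesis (65.3% rising) and cyclins and cell cycle kinases (60.5% falling) lie furthest beyond them.

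Maternal determinants and egg transcripts were among the changed genes. Of 34 determinants and germ plasm genes, 15 fell (44.1%) and 6 rose (17.6%), against 26.6% and 29.7% over all genes. With library totals alone 8 fell and 10 rose, and with the late window at 1.5 and 2.0 hpf 4 fell and 1 rose. The transcript of *trim36* (Xetrov72019684), a ubiquitin ligase needed for cortical rotation in *Xenopus*, went from 11187, 10134 and 4819 to 1863, 3143 and 2161 normalised reads (-1.87 ± 0.34, edgeR adjusted p = 0.0028), that of *spire1* (Xetrov72016949), an actin nucleator, from 2871, 1938 and 1316 to 588, 677 and 525 (-1.77 ± 0.29), and that of the Wnt ligand *wnt11b* had a log2 fold change of -1.52 ± 0.28. At 1.5 hpf *trim36* and *spire1* were already below every early library (2685 and 759), whereas *wnt11b* was still within its early range (1109). Transcripts of *kif3b* (Xetrov72016924), a motor subunit of kinesin II, rose from 832, 699 and 1131 to 2795, 4046 and 4502 (2.09 ± 0.25) and those of *otx1* (Xetrov72002176), a homeodomain factor, from 1170.5, 1687 and 2172 to 3851, 6999.6 and 5798 (1.73 ± 0.29). The T-box determinant *vegt* (Xetrov72020640) had 8649, 7148 and 9445 normalised reads early and 10233, 11383 and 11777 late, windows that did not overlap, but its log2 fold change of 0.40 ± 0.19 missed the threshold (edgeR adjusted p = 0.0908). Values of *fam46c* (Xetrov72007828), a poly(A) polymerase family member, overlapped, with 6158, 7798 and 3982 early and 5052, 4726 and 6827 late (log2 fold change -0.11, edgeR adjusted p = 0.739).

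Of 50 maternal transcription factor genes 12 rose (24%) and 10 fell (20%), both below the shares over all genes. With library totals alone 19 rose and 3 fell. Transcripts of *ets2* (Xetrov72030064) rose from 429.6, 301 and 517 to 1547, 2129 and 2987 (2.41 ± 0.30) and those of *oct25* (Xetrov72003467), a POU factor of the pluripotent embryo, from 272, 816 and 559 to 1889, 2165 and 2273 (1.94 ± 0.35), where the step lay between 1.0 and 1.5 hpf (2394 at 1.5 hpf). The subunits of the CCAAT-binding factor NF-Y parted, with *nfya* (Xetrov72021566) rising (1.82 ± 0.31) and *nfyb* and *nfyc* falling (-0.85 and -0.63). Among genes usually used as zygotic markers 6 of 41 had enough reads to be tested. Of these *not* (1869, 4181 and 1099 to 622, 447 and 375), *gata6* (65.3, 77.1 and 41.3 to 18.2, 16.4 and 23) and *bambi* (11373, 17933 and 6485 to 5350.1, 3092 and 3607) fell, *hes7.1* (Xetrov72042259) rose (462, 104 and 362 to 897, 604 and 976, 1.41 ± 0.47), and *bmp4* and *gata5* were not called.

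Egg markers had 8 rises and 8 falls among 24 (33.3% each), against 29.7% and 26.6% over all genes. With library totals alone they had 10 rises and 4 falls. Besides *zar1*, the growth factor transcript *gdf9* (Xetrov72039155) rose from 337, 235 and 513 to 1324, 1481 and 1685 (2.05 ± 0.29) and the egg coat gene *zpax* from 271, 249 and 209 to 385, 499 and 815 (1.22 ± 0.31). The oocyte linker histone *h1foo* fell from 50239, 87325 and 49659 to 38864, 18535 and 19665 (-1.28 ± 0.36). The red cell gene *slc4a1* (Xetrov72016834) had 1533, 1233 and 808 early and 277, 260.2 and 293 late (-2.11 ± 0.26), with the globin genes that were looked up at 0 throughout.

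The largest rises among named genes with at least 100 normalised reads on average were led by genes that appeared after 1.5 hpf. Besides *nostrin* and *gpc1*, *tbxa2r* (Xetrov72021247), the thromboxane receptor, had 0, 1.79 and 3.87 normalised reads early and 52.8, 329.9 and 343 late. Unlike *nostrin* and *gpc1*, it was also high at 2.5 and 3.0 hpf of Series 2, at 284 and 348 normalised reads. The necroptosis gene *mlkl* (Xetrov72009535) had 23.1, 14.3 and 19.4 early, 8.58 at 1.5 hpf and 253, 1189 and 1206 late (5.51 ± 0.64, edgeR adjusted p = 0.00159), and *lekr1* (Xetrov72001196) had 25.8, 21.5 and 24.5 and 257, 863 and 1210.3 (5.00 ± 0.58). In *ptgr1.2* (Xetrov72023704) (5.44, 1.79 and 11.6 to 27.8, 252 and 351) and *tp53i3* (Xetrov72005524) (12.2, 5.38 and 10.3 to 49.9, 267 and 263) the largest step in reads also lay between 2.0 and 2.5 hpf. Like *nostrin*, *gpc1* and *tbxa2r*, both had too few reads to be tested in the late window at 1.5 and 2.0 hpf. Measured in reads, the rises of all these genes rest mostly on the last pair of libraries. Transcripts of *mlkl* and *lekr1* were already above every early library at 2.0 hpf (253 and 257). The largest fold step of *mlkl* was from 1.5 to 2.0 hpf. With the late window at 1.5 and 2.0 hpf *mlkl* and *lekr1* were not called (edgeR adjusted p = 0.106 and 0.0564). In each early library *nostrin*, *gpc1*, *tbxa2r*, *ptgr1.2* and *tp53i3* had fewer than 10 counts. They entered the test only through the late libraries, where they were high, so their rise is given as a description. The other members of the group rose over several steps. The F-box gene *fbxo21* (Xetrov72020003) had 8.16, 16.1 and 19.4 early, 117 at 1.5 hpf and 190.1, 267 and 423 late (4.32 ± 0.45), *c20orf72* (Xetrov72001407), the mitochondrial exonuclease gene also called *mgme1*, had 19, 14.3 and 18.1, 80.4 and 216, 384 and 632 (4.56 ± 0.46), and the RNA phosphatase gene *dusp11.2* (Xetrov72025452) had 20.4, 35.9 and 77.5, 168 and 444, 877 and 1455 (4.36 ± 0.58). All 3 stayed called with the late window at 1.5 and 2.0 hpf (edgeR adjusted p = 0.048, 0.048 and 0.0488).

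The largest called falls were smaller than the largest called rises. Of the 12 genes that disappeared between 2.0 and 2.5 hpf 1 was called. All 21 tested genes of those that appeared were called, against 56.2% over all genes. Both sets were picked by their levels in these same libraries, so these counts are a description only. The library at 2.0 hpf, where the disappearing genes still had at least 50 normalised reads, belongs to the late window. Transcripts of *ap1m2* (Xetrov72037025), an adaptor subunit of clathrin coats, were at 1286, 709.9 and 437 normalised reads early, 193 at 1.5 hpf and 73, 16.4 and 17.2 late (-4.50 ± 0.66, edgeR adjusted p = 0.00179). Transcripts of *dapl1* (Xetrov72006400) were at 45522, 4177 and 4252 and 3133, 844 and 985 (-3.44 ± 1.00, edgeR adjusted p = 0.0174), so that the library at 0 hpf carried most of the change, and it was not called without the last libraries (edgeR adjusted p = 0.133). The transcript of *anubl1* (Xetrov72025359) fell from 8687, 6830.4 and 2506 to 682, 557 and 536 (-3.34 ± 0.42) and was low from 1.5 hpf (859). Next came *rab40b* (Xetrov72005839) (215, 849.8 and 133 to 67.2, 38.9 and 32.5) and the nuclear receptor gene *nr1d1* (Xetrov72017200) (4071, 6703 and 1886 to 596, 487 and 454), followed by *melk*. In both of these the library at 0.5 hpf was the highest. The meiotic actin nucleator *fmn2* (Xetrov72000114) fell from 6721, 8281 and 3625 to 1132, 886 and 775 (-2.74 ± 0.31) and the LIM-domain gene *lmo4.1* (Xetrov72011135) from 3904, 5683 and 1923 to 697, 489.7 and 494 (-2.77 ± 0.38). The remaining members were *cyp2e1* (Xetrov72036598) (404, 299 and 292 to 111, 9.22 and 16.3), a cytochrome P450 gene whose main step lay between 2.0 and 2.5 hpf and which was not called without the last libraries (edgeR adjusted p = 0.0506), and *ltb* (Xetrov72015092) (1342, 436 and 323 to 115, 113 and 88).

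Transcripts with many reads fell more often than those with few. When the tested genes were divided into 5 groups of equal size by mean normalised reads over the 6 libraries, which are not corrected for length, 704 genes rose and 237 fell in the lowest group, whereas 244 rose and 1314 fell in the highest. The median log2 fold change was 0.40 in the lowest and -0.70 in the highest group. With library totals alone the highest group had 440 rises and 573 falls, and the lowest 942 and 77. The abundant falls of at least 2-fold were led by *fus* (Xetrov72036467), an RNA-binding protein (139290, 202878 and 104134 to 69415, 68584 and 50537, log2 fold change -1.24 ± 0.31), *hsp90ab1*, *ncapd2* (Xetrov72024854), a condensin subunit (117635, 146360 and 89764 to 49932, 33172 and 26942, -1.68 ± 0.31), *nup98* (Xetrov72028743), a nucleoporin (-1.11 ± 0.41), and *incenp* (Xetrov72008578), the partner of Aurora B (-1.29 ± 0.29). The abundant rises were led by *dctpp1* (Xetrov72006358), a nucleotide hydrolase (5636, 6463 and 6499 to 15066, 15484 and 16468, 1.34 ± 0.18), *calr* (Xetrov72016278), a calcium-binding chaperone (1.03 ± 0.19), *nlk.2* (Xetrov72037310), a kinase (1456, 4105 and 5371 to 17442, 20818 and 15174, 2.29 ± 0.42), *setd8* (Xetrov72021205), the histone methyltransferase also called *kmt5a* (1.42 ± 0.22), and *ppig* (Xetrov72004755) (5778, 4186 and 7378 to 14803, 13273 and 14579.6). Transcripts of *odc1* (Xetrov72001051), ornithine decarboxylase, fell from 68513, 72726 and 68653 to 42314, 35914 and 32618 (-0.92 ± 0.22, edgeR adjusted p = 0.00725). Those of *ehmt1* (Xetrov72036811), a histone methyltransferase, were at 17792, 31235 and 17767 early and 13665, 15871 and 9443 late and just missed the threshold (-0.78 ± 0.30, edgeR adjusted p = 0.0501).

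The same windows in Series 3 polyA+ libraries showed where the change of the first clutch was shared. In that clutch 1046 of 12182 genes (8.59%) rose and 689 (5.66%) fell with edgeR. These calls came from a joint fit with the Series 1 libraries, on the gene rows that both series share. The Series 1 counts came from a fit of their own, so the shares are not directly comparable. Of the 3482 genes that rose in Series 1, 907 rose in Series 3 (26%) and 2 fell, and these 907 were 87.3% of the Series 3 rises among genes tested in Series 1. Of the 3120 genes that fell, 574 fell (18.4%) and 4 rose, and these were 83.7% of the Series 3 falls. The median log2 fold change in Series 3 was 0.82 for the rising and -0.56 for the falling genes of Series 1, against 1.52 and -1.01 in Series 1 itself. The mother, the colony, the number of embryos in a pool, the library kit and the sequencing all differed from Series 1, and these cannot be told apart. Series 3 embryos also cleaved more slowly, so windows at equal hours are not equal stages.

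A difference between the changes of both clutches was called for 1 of 12182 genes (0.00821%), while 2041 genes had an unadjusted p under 0.05 with edgeR and 226 were called with DESeq2. The called gene was *mlkl*, at 5.51 ± 0.64 in Series 1 and -0.35 in Series 3. The count was 131 without the Series 1 library at 2.0 hpf, 8 without the Series 3 library at 0 hpf, and 0 where any other library of either clutch was left out. The Series 3 library at 0 hpf stood apart, since 1087 gene rows fell at least 4-fold to 0.5 hpf. A call missed here does not show that both clutches changed alike. Ribosome biogenesis had a median of 1.37 in Series 1 and 0.49 in Series 3.

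Ribo-Zero libraries keep RNA with or without a poly(A) tail, and served to ask whether RNA that changed in the polyA+ libraries also changed in amount. In Series 3, where 2 libraries at 2.0 and 3.0 hpf were compared with 2 at 0 and 1.0 hpf, 3 of 11720 genes (0.0256%) were called with edgeR, 1 higher (0.00853%) and 2 lower (0.0171%) in the late window, 12 were called with DESeq2, and 1029 had an unadjusted p under 0.05. The called genes were *rpl37*, *rpl15* and the unnamed Xetrov72037542. Genes that rose in Series 1 had a median log2 fold change of 0.02 in the Ribo-Zero libraries (quartiles -0.08 and 0.11, 3379 genes), and genes that fell one of -0.03 (quartiles -0.13 and 0.08, 2992 genes). Over all 11720 genes the quartiles were -0.12 and 0.11. Of the genes with a value, 7 of the rising (0.207%) and 15 of the falling (0.501%) moved by 2-fold or more in either direction. The values for *aurka*, *cdk2* and *kif11* were -0.02, 0.14 and 0.12, and those for *ccnb3*, *rrp15* and *mcm2* were 0.05, 0.30 and -0.11. Leaving out a library changed the count of calls, to 1436 without the library at 1.0 hpf, 100 without that at 0 hpf, 27 without that at 2.0 hpf and 12 without that at 3.0 hpf. Ribosomal RNA took 4.31% and 6.01% of counts in the early and 27.3% and 35.0% in the late Ribo-Zero libraries, and its part in these values was not tested.

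**Figure D5:**
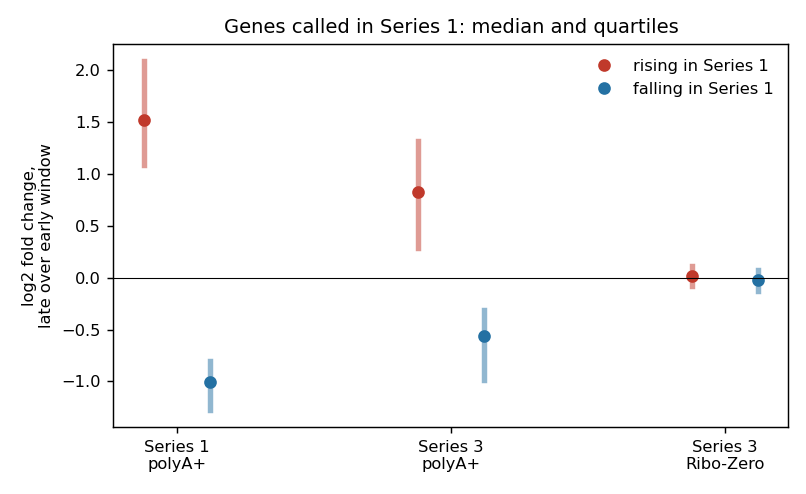
Median (points) and quartiles (bars) of the log2 fold change, late over early window, for genes that rose (red) or fell (blue) in Series 1, in Series 1 polyA+, Series 3 polyA+ and Series 3 Ribo-Zero libraries. The rising genes have medians of 1.52, 0.82 and 0.02 and the falling genes -1.01, -0.56 and -0.03; the Series 1 values chose the genes and are shown as a description.

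The difference between the Series 1 polyA+ and the Series 3 Ribo-Zero changes was tested directly. It was called for 4200 of 12634 genes (33.2%), with a more positive polyA+ change in 2561 (20.3%) and a more negative one in 1639 (13%), with edgeR. The Series 1 libraries are those of the main contrast, so these counts are not independent of it. Among named genes the difference was called for *aurka* (edgeR adjusted p = 0.00437), *ccnb3* (0.00409) and *rrp15* (0.00339), but not for *vegt* (0.17), *odc1* (0.0578) or *rpl37* (0.456). Leaving out any of the 4 Ribo-Zero libraries left between 1465 and 2046 calls, and with the late window of Series 1 at 1.5 and 2.0 hpf there were none, although 3461 genes had an unadjusted p under 0.05. Library type and clutch cannot be told apart in this comparison.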

How the data were processed

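Raw counts were deposited by the authors, who mapped reads with Bowtie 0.12.7 to transcript models, to which they had added curated transcripts and rows for rRNA and the mitochondrion. Reads matching more than 1 gene were not counted. Antisense and overlapping genes may share reads. The deposited normalised values were not used. The Series 1 and 2 table holds 21750 gene rows, and 19372 are shared with Series 3.

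A gene was tested if 3 or more of the 6 libraries held 10 or more of its counts. The quasi-likelihood test of edgeR 4.0.16 (R 4.3.3) was used with TMM scaling and a Benjamini-Hochberg adjusted p under 0.05. Differences between data sets were tested as interactions. Standard errors were the log2 fold change divided by the square root of F. DESeq2 1.42.0, other scalings and filters, other windows and each library left out were the alternatives. Named genes were those the study discusses, the 10 largest rises and falls with non-overlapping windows and at least 100 normalised reads, the 5 most abundant of at least 2-fold in each direction, and up to 4 per list (134 in all). Other members named in the text, and genes picked for abrupt steps, were chosen after their values had been seen. The contrast, gene lists and members were chosen with earlier results of these data known. Scripts were tested on simulated data. Depth is given with the report, and a count of 0 allows up to 3 counts, or 2.87 to 5.38 normalised reads in Series 1, for counting error only. Synonyms came from RefSeq (UCB_Xtro_10.0). A planned count of sequence elements near 3' ends was not run. The result for 1 gene is not reported here.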

Additional observations from a re-analysis of the deposited data

Results flagged for a closer look

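The transcript *mlkl* was singled out because its change differed between clutches by the test of the difference itself. The Series 1 log2 fold change exceeded that of Series 3 by 5.78 (edgeR adjusted p = 0.0179). In Series 1 *mlkl* was highest in the libraries at 2.5 and 3.0 hpf, although it was already above every early library at 2.0 hpf. The 4200 genes whose Series 1 polyA+ change differed from the Series 3 Ribo-Zero change were singled out by the same kind of test. The row for the reporter katushka, left out of all comparisons, held between 0.0598% and 0.242% of counts in Series 1, between 0.0135% and 0.0381% in Series 2 and none in the Series 3 polyA+ libraries.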

How the results depend on the processing

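No paired analysis was possible because the time points of the windows share no replicate number, and numbers were given in accession order. The genes changed in Series 1 numbered 1305 (1132 rising, 173 falling) when tested against a 2-fold change, 4363 with a change of at least 2-fold, and 681 (498 and 183) with the late window at 1.5 and 2.0 hpf. With library totals alone 1074 fell. Leaving out each library in turn gave 4462 to 6363 genes, 2521 to 3401 rising and 1941 to 2962 falling. DESeq2, DESeq2 size factors, both filters, a straight line in time and 1.5 hpf added to either window kept all 3 counts within 1.5 times. The difference between Series 1 and 3 was called for 226 genes with DESeq2, 2 with DESeq2 size factors, 3 with no filter, 3 with the Series 3 late window at 2.5 to 3.5 hpf and 0 with the late window at 1.5 and 2.0 hpf (447 at an unadjusted p under 0.05), and for 0 to 131 with each library left out. The Ribo-Zero change was called for 12 genes with DESeq2, 193 with no filter, 5 with at least 50 counts and 12 to 1436 with each library left out. The difference between Series 1 and Ribo-Zero gave 2603 more negative changes with DESeq2, 362 with library totals alone, and 0 in all (0 and 0 by direction) with the late window at 1.5 and 2.0 hpf. With each library left out it gave 1465 to 5203 genes, 1081 to 3052 and 384 to 2285 by direction. With scaling by totals, the share reached at 1.5 hpf was 46.5% for rising and 80.7% for falling genes. Of the named genes only *fam46c*, not called in any setting, changed sign, to 0.42 with library totals alone, 0.078 with 1.5 hpf in the late window, 0.20 with the late window at 1.5 and 2.0 hpf, and a range of -0.32 to 0.12 over libraries left out in turn. Of 129 named genes with a value in the late window at 1.5 and 2.0 hpf, 79 were no longer called. The cause of these changes was not tested, apart from the smaller number of libraries where some were left out. A transcript under about 10 counts in most libraries could not be tested.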

Other observations

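In the Ribo-Zero libraries of Series 3, 69 of the 72 cytoplasmic ribosomal protein genes with a value had a log2 fold change below 0, although *rpl37* and *rpl15* alone were called. Their median was -0.43, against -0.54 in Series 1 and -0.14 in Series 3 polyA+ libraries, and genes of oxidative phosphorylation had -0.25, 0.36 and 0.08. Ribosomal RNA took a larger part of the same late Ribo-Zero libraries, as given above, and its part was not tested. For ribosome biogenesis the Ribo-Zero median was -0.01.

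The transcript of *trib2*, a pseudokinase gene, had 5716, 4019, 3567, 2316 and 2089 normalised reads from 0 to 2.0 hpf, 0 at 2.5 hpf and 217 at 3.0 hpf. A count of 0 in the library at 2.5 hpf allows up to 3.07 normalised reads.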
